A study of Homo sapiens with 18 samples.

Results

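The Menin inhibitor VTP50469, which the study calls SNDX-50469, was given alone to MOLM13 cells, and its effect was followed across all expressed genes. MOLM13 is an established line of human acute myeloid leukemia (AML) whose MLL gene (KMT2A) is fused to AF9 (MLLT3). Expression was measured by RNA sequencing as reads per gene. The comparison rests on 4 of the 18 RNA sequencing libraries of the series, picked by their labels: 2 of cells with 500 nM VTP50469 for 16 h and 2 of control cells that received no VTP50469. Nothing in the labels names a vehicle for the controls. The study describes the MOLM13 samples as biologic replicates of 1 line, so the spread between libraries is that between cultures of the same cells. The 4 libraries held 22678236 and 23684811 counts with VTP50469, against 21447286 and 23065883 in the control. Values for single libraries are counts per 1000000 counts (CPM) after scaling by trimmed mean of M values (TMM). The exception is the check of cell type markers, whose CPM values were not scaled by TMM. For comparison, OCI-AML3 cells, an AML line with germline MLL and mutant NPM1, received 500 nM VTP50469 or none for 16 h in 3 libraries each, and MV4-11 cells, an AML line with an MLL rearrangement, received 1000 nM or none for 16 h in 2 libraries each.

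Menin, the product of MEN1, is a scaffold that holds the amino terminus of MLL, a histone H3 lysine 4 methyltransferase, on chromatin. MLL fusion proteins keep that terminus and so keep the need for Menin, and they recruit the elongation machinery and DOT1L to genes such as those of the HOXA cluster and MEIS1. Menin inhibitors occupy the pocket that MLL uses. In leukemia with an MLL rearrangement they are known to lower the fusion's target genes and to let blasts take on features of mature myeloid cells. Gene expression changes at 16 h follow from both direct and later events, which RNA levels alone cannot separate.

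The labelled cell type was checked first. All 7 markers chosen for the myeloid lineage were present at 95.2 CPM or more in every library. Of 13 markers of T, B and NK cells, 2 had no counts and the list summed to 9.52 and 10.2 CPM with VTP50469, against 9.23 and 9.32 CPM in the control, mostly CD3D. Markers of erythroid cells and megakaryocytes were without counts for 9 of 13, among them GATA1, HBB and PF4, and summed to 3.35 and 2.45 CPM against 1.68 and 1.52 CPM, most of it GP1BA, which was higher with VTP50469 (0.85 ± 0.26) but lost the call without control library 2 (0.69) or VTP50469 library 1 (0.60). Of 11 matched epithelial and stromal markers 6 had no counts, and the sums were 1.37 and 1.52 CPM against 0.839 and 1.13 CPM. The mitochondrial share of counts was 4.98% and 5.50% with VTP50469, against 4.36% and 4.83% in the control. Its part in the results below was not tested.

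VTP50469 changed 1910 of 14360 tested genes, which is 13.3%. Of these, 1158 rose (8.06% of those tested) and 752 fell (5.24%). Changed genes had an adjusted p (edgeR quasi-likelihood test, Benjamini-Hochberg) below 0.05 and a log2 fold change of at least 0.32 in size, and only they are said to have risen, fallen or passed. Most changes were small, with a median log2 fold change of 0.56 among the genes that rose and -0.45 among those that fell. A change of 2-fold or more was reached by 234 rises (1.63%) and 111 falls (0.773%). Of those, 97 rises and 20 falls concerned genes below 1 CPM in both groups, and at 5 CPM or more in either group 34 rises stood against 39 falls. Over all 14360 genes, both VTP50469 libraries lay above both controls in 4791 and below both in 4733, so groups that do not overlap, as in 1905 of the 1910 changed genes, say little here by themselves. The split between directions moved with the scaling, since 74.4% of the changed genes rose without scaling factors and 54.2% with RLE factors, against 60.6% with TMM. DESeq2, which differs in its test as well, gave 50.04%.

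**Figure D1:**
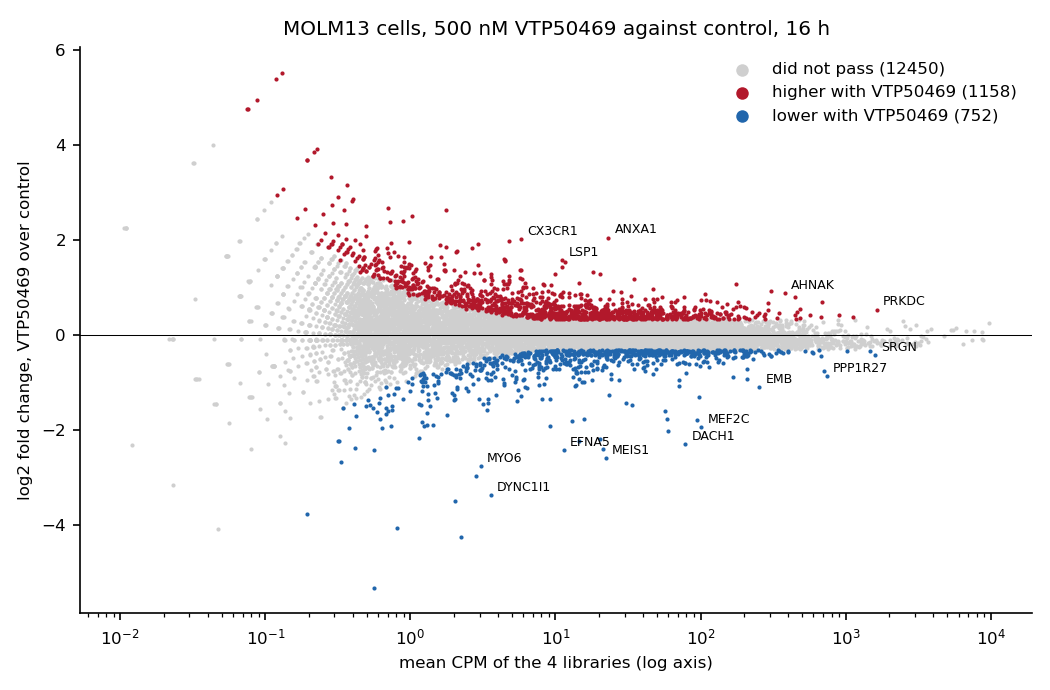
Log2 fold change of each tested gene (VTP50469 over control, vertical axis) against its mean CPM over the 4 libraries (log axis). Each point is a gene, colored where it rose (1158) or fell (752). The deepest falls among genes above 5 CPM in either group, DYNC1I1 to DACH1, reach log2 fold changes of -3.37 to -2.31. ANXA1, the largest rise among such genes, reaches 2.04.

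Promoters are shown for the 2 largest falls and the 2 largest rises with a window in the reference used. The choice was among changed genes with a symbol, at least 5 CPM in either group and no overlap between groups. Some changed genes with fewer reads moved further. Each runs from 250 bases before to 50 bases after a RefSeq gene start (GRCh38.p14), 5′ to 3′ on the gene's strand, with the dinucleotide CG in capitals. The dynein chain gene DYNC1I1 (plus strand, chr7:95772304-95772603) and TMEM255A (minus strand, chrX:120311412-120311711) fell. ANXA1 (plus strand, chr9:73151615-73151914) and the chemokine receptor gene CX3CR1 (minus strand, chr3:39281686-39281985, the first of 3 starts listed) rose.
DYNC1I1: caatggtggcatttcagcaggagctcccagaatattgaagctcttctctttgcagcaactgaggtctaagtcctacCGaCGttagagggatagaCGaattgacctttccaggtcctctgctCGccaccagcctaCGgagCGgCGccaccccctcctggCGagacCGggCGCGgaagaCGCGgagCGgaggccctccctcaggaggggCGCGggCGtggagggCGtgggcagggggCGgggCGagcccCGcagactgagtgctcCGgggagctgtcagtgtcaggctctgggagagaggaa
TMEM255A: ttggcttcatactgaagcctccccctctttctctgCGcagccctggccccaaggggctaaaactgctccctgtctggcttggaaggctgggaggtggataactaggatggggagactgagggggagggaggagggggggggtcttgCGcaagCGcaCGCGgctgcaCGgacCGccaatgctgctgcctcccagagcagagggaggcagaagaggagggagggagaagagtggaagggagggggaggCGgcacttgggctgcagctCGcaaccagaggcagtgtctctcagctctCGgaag
ANXA1: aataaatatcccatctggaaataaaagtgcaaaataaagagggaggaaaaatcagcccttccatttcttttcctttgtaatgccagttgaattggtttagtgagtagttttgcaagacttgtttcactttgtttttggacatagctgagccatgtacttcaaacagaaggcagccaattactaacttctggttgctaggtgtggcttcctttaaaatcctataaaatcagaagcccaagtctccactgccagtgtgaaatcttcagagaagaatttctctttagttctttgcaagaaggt
CX3CR1: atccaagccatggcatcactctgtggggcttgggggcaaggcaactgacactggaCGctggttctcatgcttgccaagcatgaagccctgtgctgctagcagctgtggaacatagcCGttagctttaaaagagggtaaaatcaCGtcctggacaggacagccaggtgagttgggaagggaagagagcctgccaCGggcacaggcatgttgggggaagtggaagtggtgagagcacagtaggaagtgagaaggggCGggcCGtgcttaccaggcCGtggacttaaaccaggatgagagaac
The CG dinucleotide occurred 22 times in the DYNC1I1 window, 10 times in that of TMEM255A, 0 times in that of ANXA1 and 7 times in that of CX3CR1. Among 27305 genes with such a window the median was 14, and 95.8% held at least 1 CG. Among the 10141 tested genes with a window the median was 26, so the DYNC1I1 window lay above the first median and below the second. A comparison over all changed genes was void, because only 69.1% of the genes that rose and 68.9% of those that fell had a window in the table.

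The largest fall among genes with at least 5 CPM in either group was that of DYNC1I1 (chromosome 7, 95772554 to 96110322), an intermediate chain of the dynein motor best known from neurons. It had 0.660 and 0.593 CPM with VTP50469, against 6.88 and 6.197 CPM in the control, a log2 fold change of -3.37 ± 0.26 (SE, edgeR adjusted p = 9.73e-17). Second came TMEM255A (chromosome X, 120251433 to 120311461), a transmembrane protein gene of unknown function, with 0.880 and 0.381 CPM against 5.25 and 4.76 CPM (-2.99 ± 0.27, edgeR adjusted p = 5.28e-14). MYO6 (chromosome 6, 75749239 to 75919537) encodes the myosin that walks toward the minus end of actin filaments. It had 0.660 and 0.889 CPM with VTP50469, against 5.29 and 5.39 CPM in the control (-2.77 ± 0.22, edgeR adjusted p = 4.59e-16). Each of the 3 genes was below 1 CPM in both treated libraries and at 4.76 CPM or more in both controls.

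Among the genes with more reads, the cell surface and signalling genes EFNA5, NCAM2 and SOCS2 fell about as far as MEIS1. EFNA5 (chromosome 5, 107376894 to 107670937), an ephrin ligand anchored in the membrane, had 3.65 and 3.47 CPM with VTP50469, against 19.3 and 19.3 CPM in the control (-2.43 ± 0.13, edgeR adjusted p = 7.04e-25). NCAM2 (chromosome 21, 20998409 to 21543329), a neural cell adhesion molecule, had 7.48 and 6.94 CPM against 33.7 and 32.7 CPM (-2.20 ± 0.09, edgeR adjusted p = 2.29e-29). SOCS2, an inhibitor of cytokine signalling induced by STAT5, had 6.64 and 6.73 CPM against 33.6 and 37.8 CPM (-2.42 ± 0.10, edgeR adjusted p = 7.59e-31). In each of these genes the 2 libraries of a group lay close together and far from the other group. The transcription factor gene DACH1 (chromosome 13, 71437966 to 71867204), a homolog of Drosophila dachshund, was the most abundant gene with a fall this deep, at 27.5 and 25.1 CPM with VTP50469, against 127 and 134 CPM in the control (-2.31 ± 0.06, edgeR adjusted p = 2.0e-41). CNOT6L, a deadenylase subunit that shortens poly(A) tails, had 42.0 and 42.7 CPM against 142 and 152 CPM (-1.80 ± 0.05). CPEB2, which binds the cytoplasmic polyadenylation element of mRNAs, fell by 1.81 on the log2 scale. FCGR1BP, a pseudogene of the high affinity IgG receptor, was listed lower as well (-2.23 ± 0.11), but it shares long stretches with its paralogs, so its reads are uncertain.

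**Figure D2:**
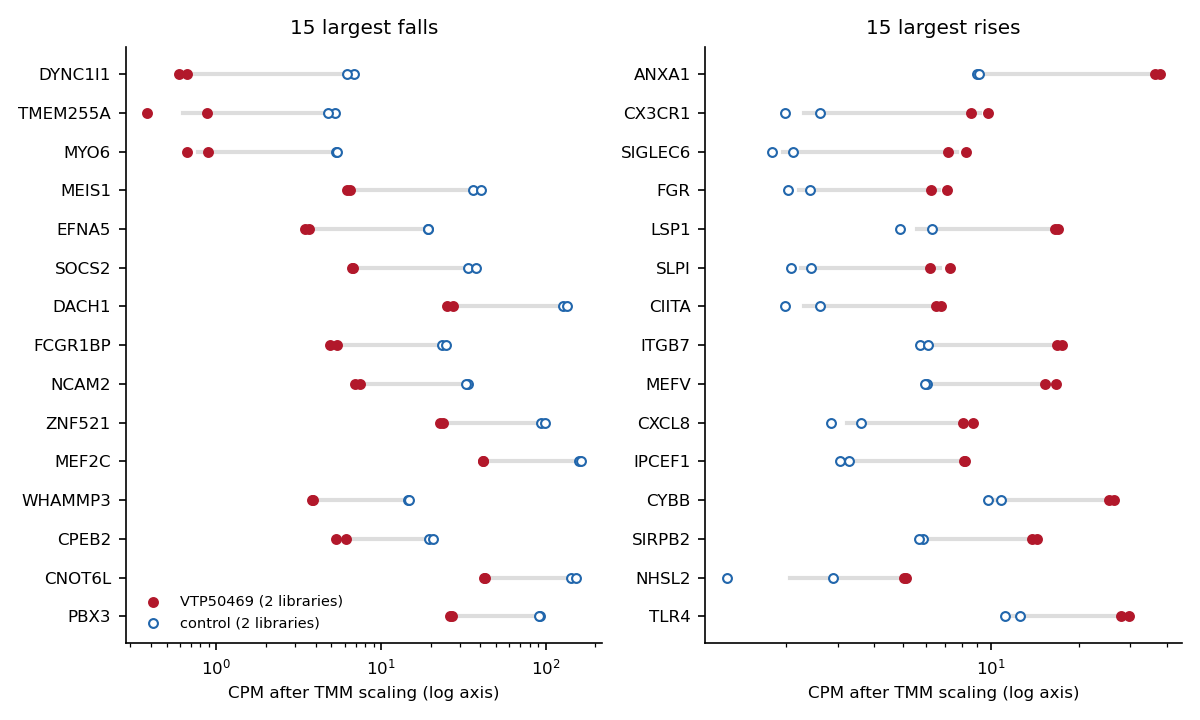
CPM after TMM scaling (log axis) in each of the 4 libraries for the 15 largest falls (left) and the 15 largest rises (right) among genes with at least 5 CPM in either group. Filled circles are the VTP50469 libraries and open circles the controls, and bars join the group means. Genes were chosen among those whose groups do not overlap, and the falls reach further (log2 fold changes to -3.37) than the rises (to 2.04).

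Some of the falls, like some of the rises, came in runs of neighbours, which were singled out after their values were seen. Among 13168 genes placed on GRCh38, of which 1781 changed, there were 12140 pairs of neighbours at most 500000 bases apart. How many pairs and runs such a share gives by itself was not tested. Both genes changed in the same direction in 203 pairs and in opposite directions in 77, while in 2699 pairs 1 gene changed and in 9161 neither did. Runs of 2 to 5 such genes numbered 61 among the falls and 102 among the rises. On chromosome 10, JMJD1C, its antisense gene JMJD1C-AS1 and REEP3 fell together over 63167225 to 63625128. JMJD1C belongs to the family of lysine demethylases and had 58.0 and 52.995 CPM with VTP50469, against 137 and 140 CPM in the control (-1.32 ± 0.05, edgeR adjusted p = 3.17e-31). REEP3, whose product shapes the endoplasmic reticulum, had 16.5 and 16.6 CPM against 45.4 and 44.6 CPM (-1.45 ± 0.07). The antisense gene went furthest, with 0.132 and 0.296 CPM (3 and 7 counts) against 4.67 and 3.82 CPM (97 and 85 counts).

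On the short arm of chromosome 10, a separate pair of runs fell on either side of MLLT10, a partner gene of MLL fusions that itself did not pass (-0.23 ± 0.06). The first held MIR1915HG (13.9 and 13.5 CPM with VTP50469, against 33.2 and 32.9 CPM in the control, -1.27 ± 0.08) and SKIDA1 (-0.72 ± 0.07). The second held DNAJC1, a chaperone of the endoplasmic reticulum (-0.77 ± 0.06), COMMD3 (-0.78 ± 0.09), BMI1, a subunit of Polycomb repressive complex 1 (-0.58 ± 0.07), and SPAG6 (-0.93 ± 0.18). BMI1 had 32.9 and 31.4 CPM with VTP50469, against 49.4 and 46.7 CPM in the control, and it was the only 1 of 33 tested Polycomb genes that changed. COMMD3 and BMI1 lie next to each other on the same strand, so reads that pass from one into the other could count for either.

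Other neighbours that fell together were SENP6 (-0.48 ± 0.05), a SUMO protease, with MYO6 on chromosome 6, and PARP8 (-0.81 ± 0.05) with EMB on chromosome 5. EMB encodes embigin, a chaperone of monocarboxylate transporters, and had 165 and 157 CPM with VTP50469, against 344 and 348 CPM in the control (-1.10 ± 0.05, edgeR adjusted p = 1.48e-29). ZBTB33 (-0.61 ± 0.06), whose product Kaiso binds methylated DNA, and NKAPP1 (-1.36 ± 0.21) fell beside TMEM255A. On chromosome 2, BAZ2B, BAZ2B-AS1 and MARCHF7 fell, with log2 fold changes of -0.37 ± 0.07, -1.36 ± 0.13 and -0.59 ± 0.05, of which BAZ2B lost the call without VTP50469 library 2 (-0.26). On chromosome 15, WHAMMP3, PDCD6IPP1, NIPA1 and NIPA2 fell within 22664739 to 22868384, by log2 fold changes of -1.93, -1.40, -0.96 and -0.43. Their next neighbours CYFIP1 (-0.14 ± 0.05) and TUBGCP5 (0.01 ± 0.08) did not pass. NIPA1 and NIPA2 encode magnesium transporters, whereas WHAMMP3 is a pseudogene with close copies on the same arm, and its counts are uncertain.

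Antisense and divergent transcripts of several falling genes fell with them. CDK6-AS1 had 0.352 and 0.296 CPM with VTP50469, against 4.43 and 3.01 CPM in the control (-3.49 ± 0.35), while CDK6, the cell cycle kinase gene beside it, had 170 and 159 CPM against 225 and 229 CPM (-0.46 ± 0.04). PBX3-DT (-2.42 ± 0.53) fell with PBX3 (26.2 and 27.0 CPM against 91.5 and 90.6 CPM, -1.77 ± 0.06). SOCS2-AS1 (-1.91 ± 0.33), INHBA-AS1 (-1.69 ± 0.31), MBNL1-AS1 (-1.50 ± 0.30) and SATB1-AS1 (-0.60 ± 0.19) fell with SOCS2, INHBA, MBNL1 and SATB1. The sources used here do not say whether the counting used strand, so reads of a gene and its antisense partner cannot be told apart. SATB1-AS1 lost the call without control library 2 or VTP50469 library 2 (-0.56 each). Over all 355 tested genes with an antisense symbol, 18 rose and 21 fell (5.07% and 5.92%, near the shares of all genes).

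The HOXA cluster on chromosome 7 changed unevenly. HOXA7 (1.01 and 1.23 CPM with VTP50469, against 2.50 and 3.28 CPM in the control, -1.37 ± 0.27), HOXA9 (27.8 and 25.3 against 34.3 and 35.9 CPM, -0.40 ± 0.07) and HOXA11 (10.6 and 9.95 against 17.5 and 17.2 CPM, -0.76 ± 0.10) fell. HOXA10 did not pass (-0.29 ± 0.07), but without VTP50469 library 1 it was at -0.35, beyond the fold limit. HOXA13 at the 5′ end of the cluster rose with 16.0 and 17.1 CPM against 12.6 and 10.9 CPM (0.50 ± 0.10, edgeR adjusted p = 2.97e-05). Of 9 tested members, 3 fell and 1 rose, with a median of -0.40. MEIS1, the cofactor of HOXA9, had 6.47 and 6.18 CPM with VTP50469, against 36.0 and 40.6 CPM in the control (-2.60 ± 0.09, edgeR adjusted p = 7.8e-33). MEIS1 and PBX3 were the only 2 of 9 tested MEIS and PBX genes that changed.

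The genes of the drug's target and its partners were looked at next. MEN1 had 136 and 143 CPM with VTP50469, against 136 and 142 CPM in the control (0.01 ± 0.05, edgeR adjusted p = 0.929), and DOT1L (-0.09 ± 0.04) and MLLT3 (-0.01 ± 0.10) did not pass. Reads of MLLT3 and KMT2A come from the normal alleles and the fusion together. Of 21 genes of Menin and MLL complexes 1 passed, KMT2A itself, with 77.9 and 72.3 CPM against 58.9 and 57.4 CPM (0.37 ± 0.06). It has a longest transcript of 16725 bases and lost the call (0.10) when the relation with transcript length described below was removed, and without VTP50469 library 1 (0.31).

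Some stem and progenitor factors fell. Of 20 tested, DACH1, ZNF521, SATB1 and BMI1 fell and ID3 rose, while 15 did not pass (median -0.07). The 4 falls were 20.0% of the list and the rise 5.0%, against 5.24% lower and 8.06% higher over all genes. Members of this and the other gene lists were chosen with earlier results of these data known. ZNF521, a zinc finger corepressor of early progenitors, had 23.8 and 22.9 CPM with VTP50469, against 93.7 and 98.1 CPM in the control (-2.04 ± 0.06, edgeR adjusted p = 2.0e-37). SATB1, which organizes chromatin loops, had 148 and 142 CPM against 273 and 279 CPM (-0.93 ± 0.04). ID3, an inhibitor of basic helix-loop-helix factors, had 2.82 and 2.71 CPM against 0.578 and 0.943 CPM (1.84 ± 0.31). MEF2C was the only 1 of 7 MEF2 factors and class IIa deacetylases that changed (41.8 and 41.8 against 160 and 162 CPM, -1.95 ± 0.05).

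The master factors of the myeloid lineage did not pass the test. CEBPA had 343 and 339 CPM with VTP50469, against 349 and 342 CPM in the control (-0.02 ± 0.04), and SPI1, which encodes PU.1, had 366 and 367 CPM against 407 and 381 CPM (-0.10 ± 0.04). Of 35 myeloid factors 5 rose and 4 fell (14.3% and 11.4%, against 8.06% and 5.24% of all genes). CEBPE, needed for secondary granules in neutrophils, rose with 8.58 and 8.30 CPM against 4.04 and 4.31 CPM (1.01 ± 0.16, edgeR adjusted p = 9.93e-07). IRF8, which favors monocyte over granulocyte fate, fell with 348 and 355 CPM against 446 and 447 CPM (-0.35 ± 0.04), and ZEB2 fell by 0.50 on the log2 scale.

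Surface receptors of phagocytes rose in several groups. Members of the gene lists were chosen with earlier results of these data known, so list shares are given as a description. Of 29 tested paired immune receptors, the activating and inhibitory receptors that set thresholds in myeloid cells, 14 rose and 1 fell (48.3% and 3.45%, against 8.06% and 5.24% of all genes), with a median log2 fold change of 0.38 against 0.01 over all genes. LILRA2, an activating leukocyte immunoglobulin-like receptor, had 36.7 and 37.0 CPM with VTP50469, against 19.9 and 19.3 CPM in the control (0.91 ± 0.08, edgeR adjusted p = 2.03e-14). Its inhibitory relative LILRB2 had 3.56 and 2.84 CPM against 0.963 and 0.943 CPM (1.74 ± 0.27). TREM1, which amplifies inflammation, had 5.10 and 4.99 CPM against 2.07 and 2.25 CPM (1.22 ± 0.20), and SIRPB2 13.8 and 14.4 CPM against 5.87 and 5.70 CPM (1.29 ± 0.13). The exception was TREM2, a lipid receptor of macrophages, which fell by 0.52 on the log2 scale but lost the call without control library 2 (-0.49) or without either VTP50469 library (-0.54 and -0.52). LILRB1 (0.45) lost it without control library 1 (0.36) or VTP50469 library 2 (0.33). LILRA1, LILRA2 and LILRB1 are neighbours on chromosome 19 and similar in sequence, so part of their reads may be shared.

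Receptors for chemoattractants rose for 7 and fell for 1 of 20 (35.0% and 5.0%, against 8.06% and 5.24% of all genes, median 0.32). CX3CR1, the fractalkine receptor of patrolling monocytes, had 8.58 and 9.82 CPM with VTP50469, against 2.60 and 1.98 CPM in the control (2.01 ± 0.17, edgeR adjusted p = 2.61e-15). CCR2, the receptor by which monocytes leave the marrow, was far more abundant, with 127 and 123.1 CPM against 73.1 and 77.0 CPM (0.74 ± 0.05, edgeR adjusted p = 1.56e-17). FPR1, which senses formylated bacterial peptides, had 9 and 11 counts with VTP50469, against 0 and 1 in the control. CCR7, which guides cells to lymph nodes, went the other way with 3.12 and 2.71 CPM against 5.63 and 6.11 CPM (-1.01 ± 0.17).

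Receptors for antibody and complement rose for 6 of 17 (35.3%) and fell for 0, against 8.06% higher and 5.24% lower over all genes. ITGAM and ITGAX, the alpha chains of complement receptors 3 and 4, lie next to each other on chromosome 16. ITGAM had 7.79 and 8.17 CPM with VTP50469, against 3.23 and 3.77 CPM in the control (1.19 ± 0.15), and ITGAX 9.11 and 7.58 CPM against 4.14 and 3.73 CPM (1.08 ± 0.14). The inhibitory Fc receptor FCGR2B (1.496 and 1.48 CPM against 0.433 and 0.135 CPM) and FCGR2C rose at low levels, and they are near copies of each other. Among integrins, ITGB7 showed the largest rise (17.6 and 16.8 CPM against 5.73 and 6.11 CPM, 1.54 ± 0.11), whereas ITGB5 fell (-1.12 ± 0.14). SIGLEC6, a lectin that binds sialic acid, had 7.13 and 8.25 CPM with VTP50469, against 1.78 and 2.11 CPM in the control (1.98 ± 0.20). It is the first of a run of 5 rising genes on chromosome 19 (51517819 to 51751878) that also held ZNF175, SIGLEC14, SPACA6 and FPR1. Of these, ZNF175 lost the call without control library 1 (0.32), SIGLEC14 without control library 1 (0.77), control library 2 (0.47) or VTP50469 library 2 (0.46), and SPACA6 without control library 1 (0.91) or VTP50469 library 1 (1.09). FCGR2C lost it without control library 2 (1.74).

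Sensors and effectors of the phagocyte followed in part. TLR4, the receptor for lipopolysaccharide, had 29.6 and 27.9 CPM with VTP50469, against 12.6 and 11.2 CPM in the control (1.27 ± 0.09, edgeR adjusted p = 1.33e-17), and TLR6 rose too (0.72), while the other 16 of 18 tested Toll-like receptors and adaptors did not pass. In the inflammasome list 4 of 17 rose (23.5%, against 8.06% of all genes). They were MEFV (16.8 and 15.4 against 6.07 and 5.97 CPM, 1.42 ± 0.12), which encodes pyrin, its partner PSTPIP1 (42.2 and 43.0 against 22.4 and 25.9 CPM, 0.82 ± 0.07), NLRP1 (1.83 ± 0.22) and NLRP12 (1.46 ± 0.22). CYBB, whose product makes superoxide in phagocytes, rose with 25.3 and 26.4 CPM with VTP50469, against 9.77 and 10.9 CPM in the control (1.32 ± 0.10). Macrophage colony-stimulating factor receptor CSF1R had 19.2 and 20.6 CPM with VTP50469, against 10.01 and 8.62 CPM in the control (1.10 ± 0.11), and IL10RA 12.98 and 12.1 CPM against 6.31 and 5.84 CPM (1.05 ± 0.12). FLT3, the receptor tyrosine kinase of early progenitors, fell with 158 and 157 CPM against 254 and 266 CPM (-0.72 ± 0.04).

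ANXA1 was the largest rise of all genes above 5 CPM. This phospholipid binding protein (chromosome 9, 73151865 to 73170393) limits inflammation and is abundant in mature phagocytes, and it had 36.5 and 38.1 CPM with VTP50469, against 8.95 and 9.12 CPM in the control (2.04 ± 0.09, edgeR adjusted p = 3.14e-29). LSP1, an actin-binding protein of leukocytes, had 16.5 and 17.0 CPM against 4.91 and 6.29 CPM (1.58 ± 0.12), and the SRC family kinase gene FGR 7.08 and 6.22 CPM against 2.41 and 2.02 CPM (1.59 ± 0.20). Of 43 genes of the actin and phagocyte cytoskeleton 7 rose (16.3%) and 0 fell, against 8.06% higher and 5.24% lower over all genes. Granule genes split. LYZ (411 and 387 against 205 and 216 CPM, 0.92 ± 0.04), MPO (162 and 160 against 99.9 and 98.7 CPM, 0.70 ± 0.05) and BPI (0.78 ± 0.18) rose. SRGN, the proteoglycan core that packs granule contents, fell with 1364 and 1371 CPM against 1836 and 1830 CPM (-0.42 ± 0.04), and the protease gene PRSS57 fell by 0.38 on the log2 scale. CHI3L1, a chitinase-like protein of specific granules and macrophages, had 238 and 234 CPM against 114 and 113 CPM (1.06 ± 0.04). SLPI, an inhibitor of neutrophil elastase, had 6.204 and 7.24 CPM against 2.07 and 2.42 CPM (1.58 ± 0.19).

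**Figure D3:**
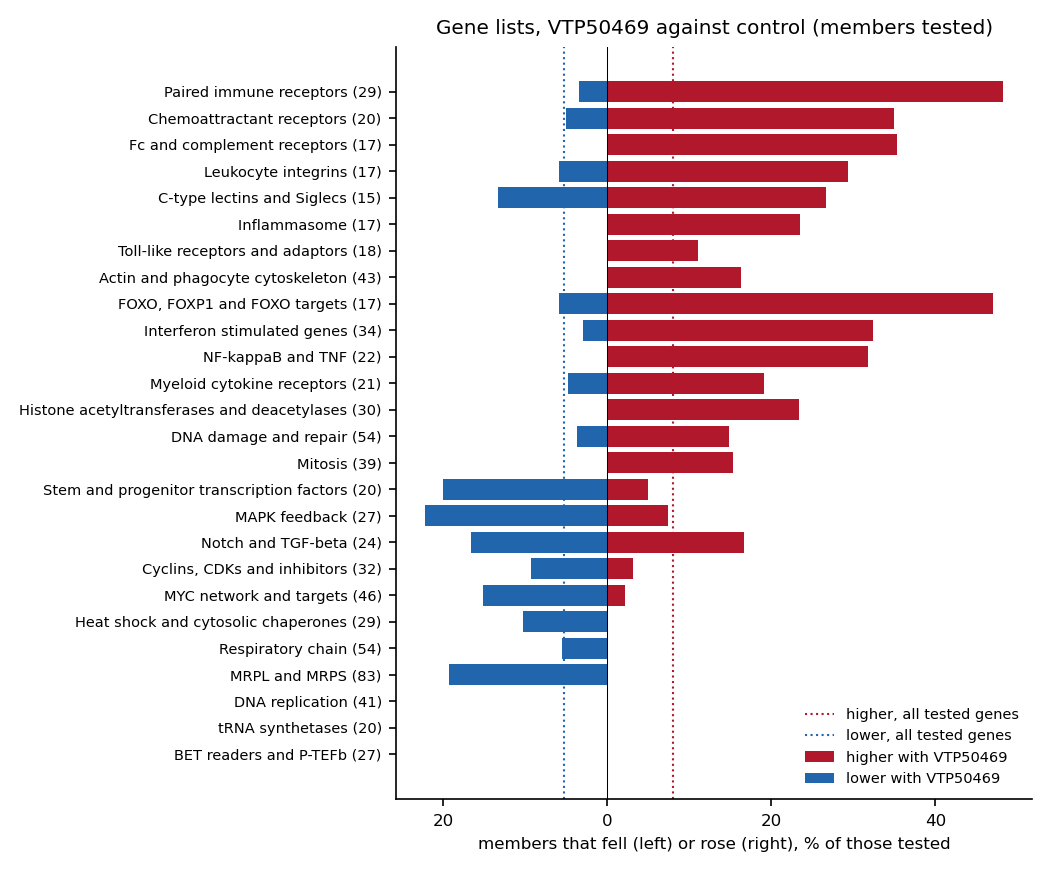
Share of tested members that rose (right, red) or fell (left, blue) with VTP50469 in 26 gene groups, with the number tested in parentheses. The groups shown were picked for display, and list members were chosen with earlier results of these data known. Dotted lines mark the shares over all 14360 tested genes, 8.06% higher and 5.24% lower. Among the groups shown, paired immune receptors (48.3%) and the FOXO group (47.1%) have the largest shares of rises. DNA replication, tRNA synthetases and BET readers show no changed genes in either direction.

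Some genes of MHC class II presentation and of the interferon response rose at low levels. In the class II and costimulation list 8 of 20 genes had enough counts to be tested, of which 3 rose (37.5%) and 0 fell. Genes scarce in the control, such as HLA-DRA, pass the count filter only through treated libraries, which favors rises. Of 18 tested class I presentation genes 1 rose (5.56%) and 0 fell (median 0.05). Over all genes 8.06% rose and 5.24% fell, and the lists are not read against each other. CIITA, the activator of MHC class II genes, had 6.51 and 6.77 CPM with VTP50469, against 2.60 and 1.98 CPM in the control (1.54 ± 0.19, edgeR adjusted p = 1.85e-09). HLA-DRA stayed scarce (13 and 20 counts against 4 and 4), and the costimulatory gene CD86 had 10.9 and 11.8 CPM against 5.05 and 5.84 CPM (1.06 ± 0.13). Of 34 interferon stimulated genes 11 rose and 1 fell (32.4% and 2.94%, median 0.25). MX2, a barrier to viral nuclear entry, had 10.8 and 11.6 CPM with VTP50469, against 4.52 and 6.11 CPM in the control (1.07 ± 0.13), and IFI6 2.64 and 2.33 CPM against 0.818 and 0.763 CPM (1.64 ± 0.27). The gene that fell was USP18 (-0.65), the deconjugase that restrains interferon signalling, and it lost the call without any 1 of the 4 libraries (-0.74 to -0.58). HLA-DRA lost it without control library 1 (1.95), control library 2 (1.85) or VTP50469 library 2 (1.59). In the NF-kappaB group 7 of 22 rose (31.8%) and 0 fell. The neutrophil chemokine gene CXCL8 had 8.01 and 8.68 CPM against 2.84 and 3.59 CPM (1.37 ± 0.17), and BCL3 (0.72) and NFKB2 (0.46), which encode members of the pathway itself, rose less.

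Immediate feedback genes of growth signalling went in both directions. Of 27 tested genes of mitogen-activated protein kinase feedback, 6 fell and 2 rose (22.2% and 7.41%, against 5.24% and 8.06% of all genes, median -0.16). EGR1, an immediate early transcription factor, fell with 5.19 and 3.98 CPM with VTP50469, against 11.0 and 12.3 CPM in the control (-1.35 ± 0.18, edgeR adjusted p = 7.3e-09), as did FOSL1 (-0.50), JUNB (-0.36), DUSP1 (-0.50) and DUSP2 (-0.34). The exceptions were JUN (2.46 and 2.62 against 1.11 and 1.53 CPM, 0.94 ± 0.25) and DUSP6, a phosphatase of ERK (11.1 and 11.3 against 7.27 and 7.05 CPM, 0.65 ± 0.11). DUSP1 lost the call without control library 2 (-0.34) or either VTP50469 library (-0.49 and -0.52), DUSP2 without control library 2 (-0.23) and JUN without control library 1 (0.73). Among targets of STAT5, SOCS2, SOCS1 (-0.57 ± 0.11) and PIM3 (-0.44 ± 0.05) fell, PIM1 rose (0.39 ± 0.07), and CISH (-0.18 ± 0.06), SOCS3 (-0.11 ± 0.16) and PIM2 (0.03 ± 0.07) did not pass. Of 20 tested genes in that list 3 rose and 3 fell, and no other fell as far as SOCS2.

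Several genes that FOXO factors are known to activate rose, while FOXP1 fell. Of 17 tested in that group 8 rose and 1 fell (47.1% and 5.88%, against 8.06% and 5.24% of all genes, median 0.30). CCNG2, an atypical cyclin of quiescent cells, had 16.5 and 15.7 CPM with VTP50469, against 8.09 and 9.43 CPM in the control (0.87 ± 0.10, edgeR adjusted p = 7.25e-10). BNIP3L, a receptor for mitophagy, had 51.4 and 52.0 CPM against 29.8 and 31.3 CPM (0.76 ± 0.06), and TXNIP, which restrains glucose uptake, 72.8 and 79.3 CPM against 48.4 and 52.99 CPM (0.58 ± 0.05). The pro-apoptotic BH3-only gene BMF, which stands in the BCL2 list, rose with 32.6 and 32.6 CPM against 16.6 and 17.9 CPM (0.91 ± 0.08, edgeR adjusted p = 5.96e-15). FOXP1, a forkhead repressor, fell with 50.8 and 54.1 CPM against 74.2 and 74.5 CPM (-0.50 ± 0.06).

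Genes of Notch and TGF-beta signalling changed in both directions. INHBA, the subunit of activin A, had 16.6 and 18.9 CPM with VTP50469, against 49.3 and 50.1 CPM in the control (-1.48 ± 0.08, edgeR adjusted p = 9.32e-23). The Notch ligand gene DLL1 had 17.4 and 16.1 CPM against 29.7 and 34.0 CPM (-0.93 ± 0.08), and the Notch target NRARP 9.59 and 9.19 CPM against 14.3 and 14.3 CPM (-0.61 ± 0.11). The receptor gene NOTCH2 rose with 141 and 130 CPM against 76.8 and 87.3 CPM (0.73 ± 0.05). In the Notch and TGF-beta group 4 of 24 rose and 4 fell (16.7% each, against 8.06% higher and 5.24% lower over all genes).

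Cell cycle lists differed at 16 h. Of 39 mitosis genes 6 rose (15.4%) and 0 fell, against 8.06% higher and 5.24% lower over all genes. After the length adjustment described below, 2 of the 6 rises were left. Of 41 genes of DNA replication 0 passed in either direction, and their log2 fold changes ran from -0.30 to 0.26. Among 32 cyclins, CDKs and inhibitors, CDK6, E2F1 (-0.35 ± 0.06) and the CDK4/6 inhibitor CDKN2C fell (9.375%), and CCNA1 rose (0.69, 3.125% of the list). CDKN2C, which encodes p18, had 47.7 and 48.0 CPM with VTP50469, against 91.0 and 95.4 CPM in the control (-0.96 ± 0.05, edgeR adjusted p = 2.85e-23), so the kinase and its inhibitor fell together. E2F1 lost the call without VTP50469 library 2 (-0.30). MYC, a transcription factor that drives growth, had 1287 and 1296 CPM against 1607 and 1670 CPM (-0.34 ± 0.04), and without control library 2 it fell short of the limit (-0.318). Its network and targets fell for 7 and rose for 1 of 46 (15.2% and 2.17%, median -0.18), among them MRTO4 (-0.43 ± 0.04) and NME1 (-0.44 ± 0.06).

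Genes of protein synthesis and respiration shifted down together by small amounts, mostly short of the limit of 0.32. Of 83 mitochondrial ribosomal protein genes 16 fell (19.3%, against 5.24% of all genes) and 0 rose (against 8.06%). Only 5 had a log2 fold change above 0, and the median was -0.23. The respiratory chain genes of the nucleus had a median of -0.20, with 4 of 54 above 0 and 3 that fell, and cytosolic chaperones one of -0.22, with 2 of 29 above 0. HSPB1, a small heat shock protein, had 564 and 574 CPM with VTP50469, against 790 and 762 CPM in the control (-0.45 ± 0.04, edgeR adjusted p = 1.18e-15). The 13 mitochondrial genome transcripts had a median of 0.18, and 0 passed. tRNA synthetases (20 tested) and BET readers with P-TEFb (27 tested) held 0 changed genes each. Over all tested genes the median log2 fold change also fell with abundance. It was 0.24 for the 2366 genes with a mean under 1 CPM and -0.10 for the 658 most abundant genes. For the same genes the medians were 0.07 and -0.10 in OCI-AML3, and 0.12 and -0.15 in MV4-11. Whether the downward shift of the lists goes beyond this relation with abundance was not tested.

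The direction of small changes also ran with transcript length. The median log2 fold change was -0.07 for 1302 genes with a longest transcript under 1000 bases, -0.10 for 2181 genes of 1000 to 2000, -0.03 for 4873 of 2000 to 4000, 0.05 for 4667 of 4000 to 8000 and 0.17 for 1199 of 8000 or more. In the longest class 21.5% rose, against 3.53% in the shortest. VTP50469 library 2 minus VTP50469 library 1 showed medians of 0.03 in the shortest and -0.03 in the longest class, and control library 2 minus control library 1 showed -0.04 and 0.05. The span of these medians between the treatment groups was therefore wider than that between libraries of 1 group, but replicates differed along the same axis. Over 14222 genes, Spearman's rank correlation with length was 0.21 for VTP50469 over control, and over the 11627 protein-coding genes among them 0.32. Over the 14222 genes it was 0.17 for control library 2 minus 1, nearly as strong as the 0.21, and -0.10 for VTP50469 library 2 minus 1. Between replicates it was not computed for protein-coding genes alone. The response of OCI-AML3 cells to the same dose ran from -0.05 to 0.05, and that of MV4-11 cells to 1000 nM was -0.04 in both the shortest and the longest class. The cause of the relation was not tested.

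With that relation removed by a length-dependent offset, 1455 of the 1910 changed genes kept call and direction, and the lists parted. Paired immune receptors still rose for 14 and fell for 1, the MYC group for 1 and 7, and the FOXO group for 7 and 1. The medians of the respiratory chain and the cytosolic chaperones were -0.19 and -0.21 after the adjustment, against -0.20 and -0.22 before it. In contrast, histone acetyltransferases and deacetylases, of which 7 of 30 had risen, kept 1 rise, histone and DNA methylation enzymes 0 of 5 rises, DNA repair genes 3 of 8 and mitosis genes 2 of 6. Examples are KMT2D (transcript of 20686 bases), with 259 and 233 CPM under VTP50469, against 164 and 168 CPM in the control (0.56 ± 0.05, 0.25 after adjustment), EP300 (0.43 ± 0.05, 0.29 after adjustment) and CREBBP (0.43 ± 0.05, 0.25 after adjustment). The rises of these groups and the length of their transcripts cannot be told apart here.

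**Figure D4:**
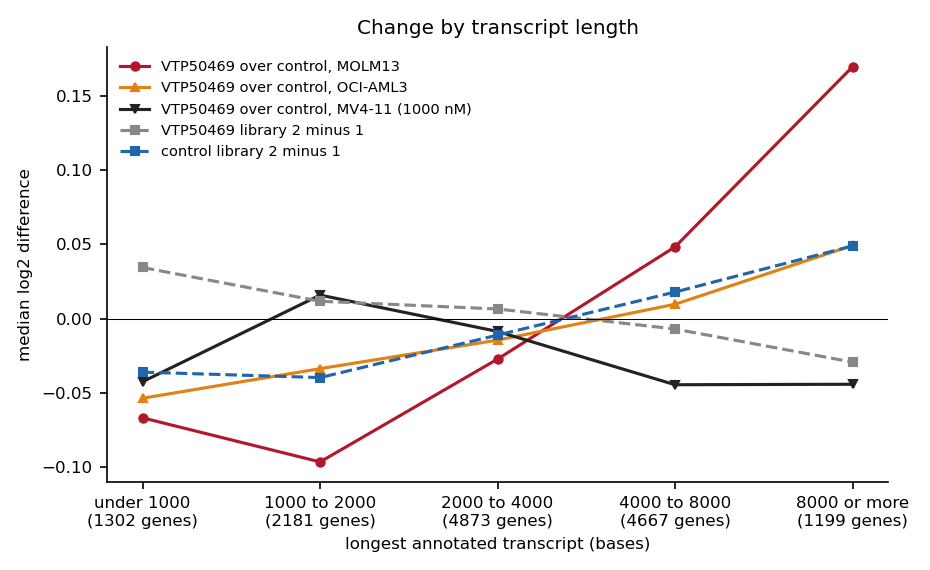
Median log2 difference (vertical axis) by class of longest annotated transcript (horizontal axis, number of genes in parentheses). Lines show VTP50469 over control in MOLM13 (red), OCI-AML3 (orange) and MV4-11 (black, 1000 nM), and the differences between the 2 VTP50469 libraries (gray) and between the 2 control libraries (blue). The MOLM13 line spans -0.10 to 0.17, and the lines between replicates stay within -0.04 to 0.05.

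By reads gained or lost, the picture was set by abundant genes. The largest gains in CPM were PRKDC, the catalytic subunit of DNA-dependent protein kinase (1981 and 1893 CPM with VTP50469, against 1290 and 1394 CPM in the control, 0.53 ± 0.04), TSPOAP1 (842 and 853 against 517 and 540 CPM, 0.68 ± 0.04) and the myosin gene MYH9 (1264 and 1283 against 946 and 1035 CPM, 0.36 ± 0.04). SRRM2, PLEC, AHNAK, LYZ, MKI67, TLN1 and CORO1A followed. Of these 10, PRKDC, MYH9, SRRM2 and TLN1 lost the call after the length adjustment. The giant scaffold gene AHNAK (0.88 ± 0.05) kept it at 0.59 and the proliferation antigen gene MKI67 (0.54 ± 0.04) at 0.32. The largest losses were SRGN, PPP1R27, LAMP5, MYC, OAZ1, HSPB1, EMB, PRSS57, PRMT1 and TOMM40. Without control library 1, MYH9 (0.30), TLN1 (0.318), OAZ1 (-0.319) and PRMT1 (-0.31) fell short of the limit. PPP1R27, a regulatory subunit gene of protein phosphatase 1, had 522 and 522 CPM with VTP50469, against 966 and 952 CPM in the control (-0.88 ± 0.04, edgeR adjusted p = 1.07e-29). The lysosome-associated LAMP5 had 524 and 526 CPM against 901 and 893 CPM (-0.77 ± 0.04).

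Families taken by symbol are given as a description, beside 8.06% higher and 5.24% lower over all genes. Zinc finger genes (ZNF) rose for 39 of 386 (10.1%) and fell for 7 (1.81%), with a median of 0.13. Long intergenic noncoding genes (LINC) rose for 18 of 152 (11.8%) and fell for 3 (1.97%), and microRNA host genes rose for 6 and fell for 1 of 22. Ribosomal protein genes with their pseudogenes fell for 11 of 263 (4.18%) and rose for 2 (0.760%), and histone genes fell for 7 of 48 (14.6%). Histone and ribosomal protein genes have near-identical copies, so counts of single members are uncertain. The nuclear noncoding RNAs MALAT1 (330 and 386 CPM with VTP50469, against 240 and 209 CPM in the control, 0.68 ± 0.05) and NEAT1 (0.56 ± 0.08) rose, and their longest transcripts are 10434 and 22743 bases.

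The responses of MOLM13 and OCI-AML3 to 500 nM at 16 h were compared directly, as a difference of log2 fold changes in 1 fit of all 18 libraries. The genes were the 6 largest rises and the 6 largest falls at 5 CPM or more in either MOLM13 group. CPM values of this fit were scaled across the 3 lines and so differ slightly from those above. In that fit 721 of 17597 genes (4.10%) differed. The 12 genes were chosen for their change in MOLM13, which favors a larger effect there, so their number is not read against that share. MEIS1 had 25.1, 25.2 and 25.8 CPM in treated and 36.6, 34.9 and 36.0 CPM in control OCI-AML3 cells, so it fell there too, but by less (difference -2.13 ± 0.14, edgeR adjusted p = 2.82e-09). MYO6 had 19.4 to 20.9 CPM in treated and 24.0 to 26.7 CPM in control OCI-AML3 cells. It fell there by less (-0.34 ± 0.07), and its near silencing was seen in MOLM13 (difference -2.47 ± 0.21). DYNC1I1 did not pass in OCI-AML3 (0.18 ± 0.18, difference -3.59 ± 0.34), and SOCS2 fell by less (difference -1.55 ± 0.20), at 0.983 to 1.27 CPM in the controls. EFNA5 was at 0.252 CPM or less in every OCI-AML3 library, so its difference (-5.16 ± 0.59) rests on a few counts there. For TMEM255A the difference did not pass. It had 4.40, 4.20 and 4.09 CPM with VTP50469, against 24.3, 25.8 and 25.4 CPM in control OCI-AML3 cells, a log2 fold change of -2.57 ± 0.10, against -3.02 in MOLM13 in the same fit (difference -0.45 ± 0.31, edgeR adjusted p = 0.530, 95% interval -1.05 to 0.16).

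Among the rises, ANXA1 had 104, 102 and 103 CPM with VTP50469, against 60.8, 61.0 and 59.9 CPM in control OCI-AML3 cells, and rose by 1.247 ± 0.10 less on the log2 scale than in MOLM13. CX3CR1 rose less there as well (0.51 ± 0.08, difference 1.47 ± 0.18). FGR (difference 1.87 ± 0.33, edgeR adjusted p = 0.00145) and SLPI (difference 1.26 ± 0.31, edgeR adjusted p = 0.0204) did not pass in OCI-AML3. LSP1 was too scarce there for a comparison and SIGLEC6 had no counts. MV4-11 cells received 1000 nM, so their values are given without a test of the difference. The log2 fold changes in MV4-11 were 1.57 ± 0.07 for ANXA1, 1.33 ± 0.10 for CX3CR1, 2.49 ± 0.11 for LSP1, -1.88 ± 0.09 for MEIS1 and -2.05 ± 0.31 for TMEM255A. SOCS2 kept 40.1 and 40.4 CPM in treated MV4-11 cells, against 51.5 and 48.5 CPM in their controls, and EFNA5 and MYO6 had no counts in either group.

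**Figure D5:**
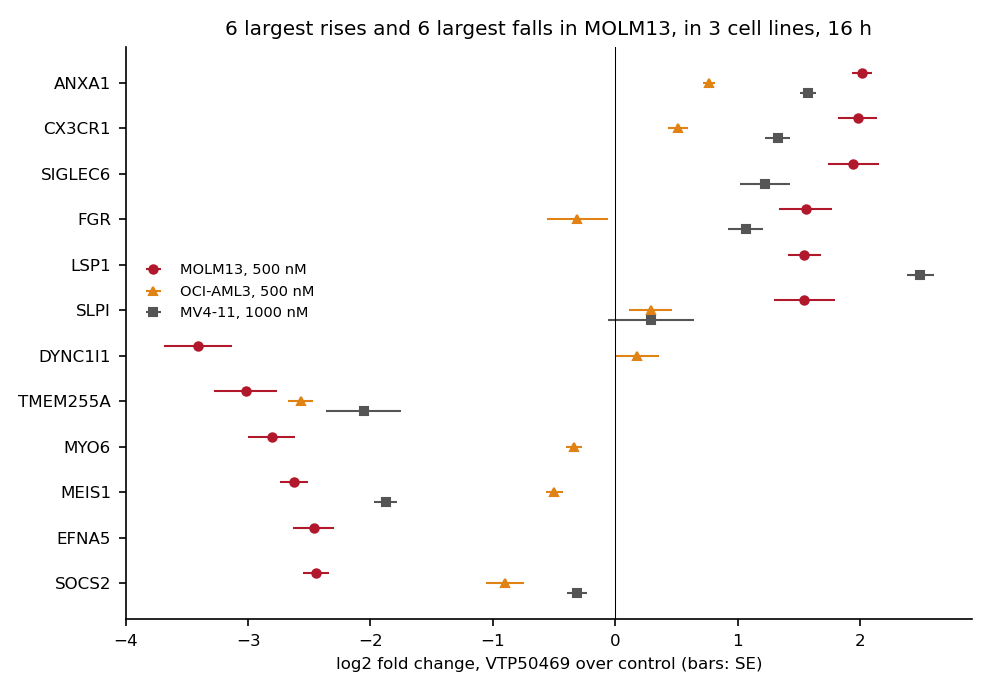
Log2 fold change (VTP50469 over control, horizontal axis, bars are SE) in MOLM13 (500 nM), OCI-AML3 (500 nM) and MV4-11 (1000 nM), all at 16 h. The genes are the 6 largest rises and 6 largest falls of MOLM13 at 5 CPM or more in either group. A line is left out where no library reached 0.3 CPM. TMEM255A lies between -3.02 and -2.05 in all 3 lines, whereas DYNC1I1 and MYO6 lie far below 0 in MOLM13. In OCI-AML3, MYO6 fell by less (-0.34) and DYNC1I1 did not pass (0.18).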

How the data were processed

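RNA was sequenced on a HiSeq 4000 in 18 libraries. The authors deposited whole-number counts per gene for each library, with no normalization. Their processing notes name STAR and hg38, whereas the study's methods describe another aligner, so which program made these counts is unsure. For the counting program, the annotation and the use of strand, nothing is given in the sources used here. Symbols matched 40931 of 58037 gene identifiers, and 0.351% of MOLM13 counts lay on the others.

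The 8 MOLM13 libraries were fitted together in R 4.3.3 with edgeR 4.0.16 (TMM scaling, filterByExpr, quasi-likelihood test, Benjamini-Hochberg adjustment over all genes tested), and VTP50469 alone was contrasted with control. The libraries share 4 residual degrees of freedom and a common biological coefficient of variation of 3.06%. The standard error is the log2 fold change over the square root of F. Genes named by rule were members of the gene lists, the 15 largest rises and 15 largest falls at 5 CPM or more in either group without overlap, and the 10 largest gains and 10 largest losses of CPM. Neighbours of changed genes were named as well, picked after their values were seen. The members and lists were chosen with earlier results of these data known. The tests were checked on simulated counts that had the same spread for all genes, no relation with transcript length and no changes in the scarcest genes. That check does not cover replicate differences along length or calls among scarce genes. Gene positions and promoters came from RefSeq (GRCh38.p14) and transcript lengths, matched for 99.0% of tested genes, from GENCODE transcripts. Alternatives were other scalings, filters and tests (DESeq2 1.42.0, limma 3.58.1), a replicate block, fits without each library and, chosen after seeing the data, an offset fitted by lowess (span 0.3) on transcript length.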

Additional observations from a re-analysis of the deposited data

Results flagged for a closer look

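The effect of VTP50469 differed between MOLM13 and OCI-AML3 for 9 of the 12 genes compared, by the test of the difference itself in edgeR. The 12 genes were chosen for their large change in the same MOLM13 libraries, which favors such differences, and over all genes 4.10% differed. Among the rises, the log2 difference (MOLM13 minus OCI-AML3) was 1.247 for ANXA1, 1.47 for CX3CR1, 1.87 for FGR and 1.26 for SLPI. Among the falls it was -3.59 for DYNC1I1, -2.47 for MYO6, -2.13 for MEIS1, -5.16 for EFNA5 and -1.55 for SOCS2. EFNA5, FGR and SOCS2 were at 1.27 CPM or less in every OCI-AML3 library, so few reads stand behind the OCI-AML3 side of these differences. MLL fusion, NPM1 mutation and all else that separates the lines cannot be told apart, since each genotype is 1 line.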

How the results depend on the processing

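The number of changed genes, 1910 (1158 higher, 752 lower), stayed within 1.5 times under most alternatives. The exceptions were a test against the fold limit itself (534, with 315 higher and 219 lower), DESeq2 (689 higher) and a fit of all 18 libraries (720 higher). Leaving out 1 library at a time gave 1495 to 1811 changed genes, 858 to 1008 higher and 637 to 803 lower. Replicate numbers did not pair the samples (correlation of deviations between VTP50469 and control -0.07 over 10870 genes), and with the replicate number as a block 1847 genes changed, of which 1844 were among the 1910. Rises made up 60.6% of the changed genes, 54.2% with RLE factors, 67.9% with upper-quartile factors, 74.4% without factors, 50.04% with DESeq2, 49.5% with no filter and 47.6% with all 18 libraries. Changes of 2-fold or more numbered 91 higher and 71 lower with DESeq2, 29 higher and 33 lower at a mean count of at least 50, and 131 higher and 168 lower with limma-voom, against 234 and 111. The 721 genes that differed between lines fell to between 462 and 684 when 1 library was left out, with 467 without control library 1, 473 without control library 2 and 462 without VTP50469 library 2 of MOLM13.

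The medians of the gene lists moved under many alternatives. A median counted as moved when it differed by at least the standard deviation between pairs of a VTP50469 and a control library. Over all alternatives 352 medians moved and 640 did not. Without scaling factors 46 moved and 16 did not. With limma-voom 34 moved, with no filter 34, and with 1 library left out 14 to 30. Among the genes named, calls were lost in 130 combinations of gene and alternative. Of these, 37 came with a test against the fold limit itself, 16 with the length adjustment and 11 with limma-voom. Another 10 came with DESeq2 and 9 without scaling factors. Signs turned only for 5 named genes near 0 that had not passed. MEN1 (0.0072) was at -0.013 with RLE factors and with DESeq2, -0.027 with no filter, -0.023 with all 18 libraries and -0.033 to 0.038 with 1 library left out. MLLT3 (-0.011) was at 0.037 without factors, 0.013 with upper-quartile factors, 0.010 at a mean count of at least 50 and -0.095 to 0.075 with 1 library left out. CEBPA (-0.018) was at 0.030 without factors, 0.028 with limma-voom, 0.0057 with upper-quartile factors and 0.0028 at a mean count of at least 50. TUBGCP5 (0.0079) was at -0.012 with RLE factors and with DESeq2, -0.026 with no filter, -0.023 with all 18 libraries, -0.0029 with the length adjustment and -0.019 to 0.027 with 1 library left out. PIM2 (0.029) was at -0.0046 with no filter and -0.0010 with all 18 libraries. The cause was not tested. With 2 libraries a group, changes of genes with few counts are the least certain.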
